A study of Arabidopsis thaliana with 16 samples.

Results

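The avrB-repressed core of the Arabidopsis leaf is a set of 83 probe sets whose signal was much lower after avrB than in untreated leaves in all 4 genotypes of the study. The members were chosen from 22746 probe sets that are not array controls, of which they make up 0.365%. Each had a group mean at least 1.5 log2 units lower 6 h after avrB than in untreated leaves in Col-0, atgsnor1-1, atgsnor1-3 and sid2, and a mean signal of at least 50 units in untreated Col-0. Of the 83, 36 carry 1 named gene in the annotation used, and the other 47 are not named here. The falls themselves chose the members, so they are described below without a test, and the tests concern differences between genotypes within a state. At rest, 0 of 78 tested members were called different from Col-0 in atgsnor1-1, 2 in atgsnor1-3 and 5, all higher, in sid2. Over all tested probe sets, 0.0879% were called higher and 0.0586% lower in atgsnor1-1. The shares were 2.29% higher and 6.5% lower in atgsnor1-3, and 1.96% and 3.96% in sid2. After avrB 43 of 78 tested members were called lower in atgsnor1-3 than in Col-0, where 8.76% of all tested probe sets were, and these calls are not independent of the choice of members.

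Leaves of plants aged 4 weeks were profiled on 16 Affymetrix ATH1 arrays, which form 8 groups of 2. Wild-type Col-0 was set beside 3 mutants, namely atgsnor1-1, atgsnor1-3 and sid2, each sampled untreated and 6 h after avrB. All plants grew at 20 °C and 65% humidity, lit for 18 h and dark for 6 h. The line atgsnor1-1 is known for raised activity of S-nitrosoglutathione reductase and atgsnor1-3 for its loss, while sid2 carries no working isochorismate synthase 1 and makes little salicylic acid on infection. Neither targeted gene was analysed here, so the genotypes rest on their labels. The control leaves were untreated rather than mock-inoculated, and no group was labelled as given bacteria without avrB. The labels give a harvest time only for the avrB leaves. Handling, time of day and other effects of any bacteria used therefore cannot be told apart from avrB.

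AvrB is an effector protein of the bacterium Pseudomonas syringae. Plants with the resistance protein RPM1 recognise it through changes in the host protein RIN4, and a rapid hypersensitive cell death can follow. Leaves that mount such a response are known to lower transcripts of growth and photosynthesis while defence transcripts rise. S-nitrosoglutathione is a store of nitric oxide that can modify protein thiols, and its reductase keeps it low.

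A signal is the MAS5 summary of a probe set on an array, in units on a linear scale on which every array had been brought to the same trimmed mean. Median signals per array lay between 33.1 and 40.9 units, and the correlation between the arrays of a group, across probe sets, lay between 0.920 and 0.972. For 4 arrays the best-correlated partner lay outside their own group. Of 6 mesophyll markers only RCA was matched to a probe set, at 5255 and 6403 units in untreated Col-0. Of 7 guard cell markers 2 were matched, with summed signals between 187 and 380.2 units over the 8 groups, and the matched stomatal lineage markers SPCH and MUTE summed to at most 24.7 units. The root marker PYK10 lay between 3.28 and 27.2 units, and no trichome, phloem, dividing cell or flower marker was matched. Separate plants are not named for the 2 arrays of a group, so p-values cover only how far these samples lie apart, a spread that may be technical.

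The 4 genotypes contributed unequally to the core. Of 9961 probe sets at 50 units or more in untreated Col-0, 146 met the fall of 1.5 log2 units in Col-0, 471 in atgsnor1-1, 1262 in atgsnor1-3 and 558 in sid2. Members were thus 56.8% of the probe sets that fell this far in Col-0, 17.6% of those in atgsnor1-1, 6.58% of those in atgsnor1-3 and 14.9% of those in sid2. The condition on Col-0 was the most restrictive: without it 272 probe sets would have entered, against 103, 87 and 92 without the condition on atgsnor1-1, atgsnor1-3 or sid2. By the mirrored rule, at least 1.5 log2 units higher after avrB in all 4 genotypes and at least 50 units in Col-0 after avrB, 431 probe sets would have been chosen.

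**Figure D1:**
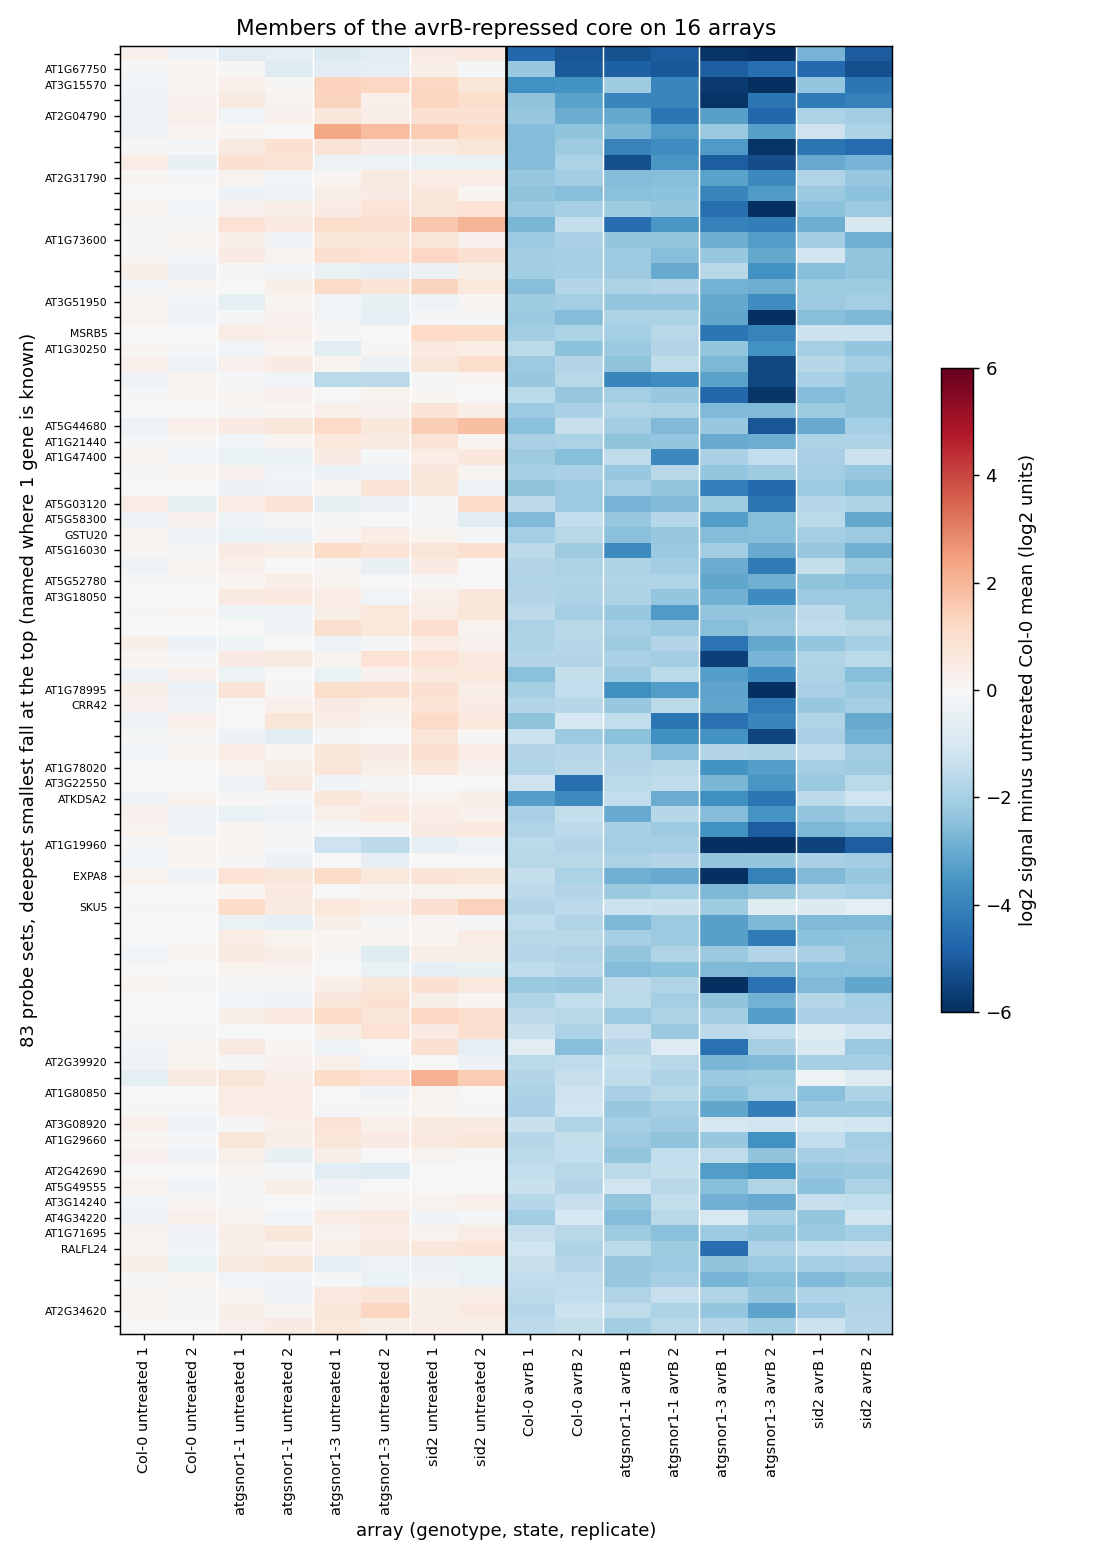
Log2 signal of the 83 members (rows, named where 1 gene is known) on each of the 16 arrays (columns), minus the mean of untreated Col-0. Values beyond 6 log2 units take the end colour. The 8 columns after avrB are blue in nearly every row, most deeply on the atgsnor1-3 arrays, and the 8 untreated columns stay near white.

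The median member signal was 195 and 177 units on the untreated Col-0 arrays, 214 and 219.6 in atgsnor1-1, 247 and 238 in atgsnor1-3 and 266 and 236 in sid2. After avrB it was 55.1 and 52.6 units in Col-0, 41.9 and 51.9 in atgsnor1-1, 28.6 and 19.9 in atgsnor1-3 and 40.6 and 43.3 in sid2. Untreated Col-0 thus had the lowest resting medians, and both atgsnor1-3 arrays had the lowest medians after avrB. In bulk leaf RNA, fewer living cells of a type and less RNA per cell cannot be told apart.

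As log2 differences from untreated leaves, the falls had a median of -1.78 in Col-0 (deepest -4.92), -2.24 in atgsnor1-1 (-5.26 to -1.51), -3.51 in atgsnor1-3 (-7.30 to -1.62) and -2.49 in sid2 (-5.32 to -1.59). Over all 13647 tested probe sets the medians were -0.12, -0.08, -0.15 and -0.16. The median member kept 29.0% of its untreated signal in Col-0, 21.1% in atgsnor1-1, 8.77% in atgsnor1-3 and 17.8% in sid2. For 65 of the 83 members the deepest fall of the 4 was in atgsnor1-3, and for 61 the shallowest was in Col-0. The limit was the same in all 4 genotypes, and the fewest probe sets reached it in Col-0. In 68 members the depth ran in the order Col-0, sid2, atgsnor1-3. In 19 members the 4 falls lay within 1 log2 unit of each other, and in 30 they were spread over 2 or more.

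In each genotype both arrays after avrB lay below both untreated arrays for all 83 members. The mean fall that the rule requires makes this likely in advance. It was not counted over all probe sets, and nothing is read from it. Among all tested probe sets, the share called lower after avrB was 5.07% in Col-0, 10.5% in atgsnor1-1, 20% in atgsnor1-3 and 11.6% in sid2. Because the rule used this contrast, nothing is read from the members' count. After avrB, 17 members in Col-0, 23 in atgsnor1-1, 35 in atgsnor1-3 and 15 in sid2 had a mean below 20.2 units, the level under which the dimmest 40% of probe sets lie. There a signal is near background, so the direction of a difference is firmer than its size.

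**Figure D2:**
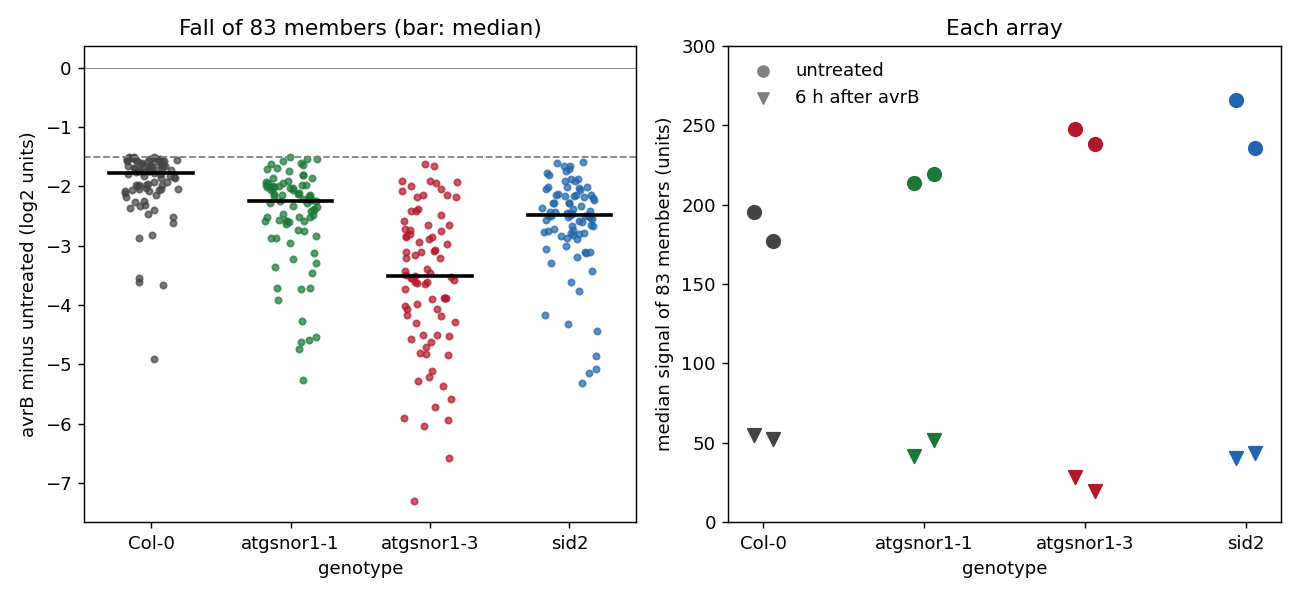
Left, the fall of each of the 83 members in each genotype (points, log2 units after avrB minus untreated) with the median as a bar and the rule's limit as a dashed line; right, the median member signal on each array. The median bars stand at -1.78, -2.24, -3.51 and -2.49, and the atgsnor1-3 arrays after avrB, at 28.6 and 19.9 units, are the lowest points on the right.

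Of the named members, 7 were grouped under the cell wall, its synthesis or the space outside the cell. EXPA8 (AT2G40610, chromosome 2) encodes an expansin, a protein that loosens the wall of growing cells. Its untreated signals were 223 and 167 in Col-0, 351 and 310.1 in atgsnor1-1, 413 and 295 in atgsnor1-3 and 327 and 321 in sid2. After avrB they were 70.9 and 52.6 in Col-0, 26.2 and 23.5 in atgsnor1-1, 2.92 and 11.5 in atgsnor1-3 and 30.7 and 40.5 in sid2. Its falls were -1.66 in Col-0, -3.73 in atgsnor1-1, -5.91 in atgsnor1-3 and -3.20 in sid2, so the fall was shallowest in Col-0 and left atgsnor1-3 below 20.2 units on both arrays.

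ATKDSA2 (AT1G16340, chromosome 1) encodes a synthase of KDO, a sugar of the pectin rhamnogalacturonan II. Its untreated signals were 56.7 and 75.6 in Col-0, 69.1 and 63.2 in atgsnor1-1, 104 and 85.5 in atgsnor1-3 and 76.6 and 85.6 in sid2. After avrB they were 6.54 and 4.76 in Col-0, 23.2 and 8.25 in atgsnor1-1, 5.03 and 3.11 in atgsnor1-3 and 21.9 and 28.3 in sid2. It was nearly at background in Col-0 and atgsnor1-3 and highest in sid2, with falls of -3.55 in Col-0, -2.25 in atgsnor1-1, -4.58 in atgsnor1-3 and -1.70 in sid2.

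SKU5 (AT4G12420, chromosome 4) encodes a glycosylphosphatidylinositol-anchored protein of directional root growth. It was measured untreated at 199 and 216 in Col-0, 441 and 301 in atgsnor1-1, 326 and 284 in atgsnor1-3 and 397 and 542 in sid2. Its levels after avrB were 61.8 and 70.0 in Col-0, 84.2 and 80.9 in atgsnor1-1, 47.4 and 124 in atgsnor1-3 and 118 and 136 in sid2. Its falls were among the most even of the core, at -1.66 in Col-0, -2.14 in atgsnor1-1, -1.99 in atgsnor1-3 and -1.88 in sid2. AT1G67750, of the pectate lyase family, went from 50.5 and 60.4 to 11.5 and 1.67 units in Col-0, and after avrB was at most 2.38 units on the 6 mutant arrays. Its Col-0 fall was -3.66, into the range near background, and it was too dim on average to be tested. The class III peroxidase gene AT1G71695 went from 628 and 485 to 209 and 173 units in Col-0 and to between 96.2 and 135 units on the mutant arrays. The subtilisin-like protease gene AT3G14240 had falls of -1.54 in Col-0, -1.95 in atgsnor1-1, -3.09 in atgsnor1-3 and -1.66 in sid2. RALFL24 (AT3G23805), of the RALF family of secreted peptides, had falls of -1.53 in Col-0, -2.16 in atgsnor1-1, -3.65 in atgsnor1-3 and -2.15 in sid2.

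Chloroplast proteins made up 4 members. CRR42 (AT5G20935, chromosome 5) is needed to build the chloroplast NDH complex, which cycles electrons around photosystem I. Untreated, it stood at 209.6 and 150.3 in Col-0, 181 and 219.6 in atgsnor1-1, 249 and 221 in atgsnor1-3 and 313 and 248 in sid2. After avrB it stood at 52.5 and 53.6 in Col-0, 36.8 and 57.1 in atgsnor1-1, 20.5 and 9.57 in atgsnor1-3 and 37.3 and 44.0 in sid2. Both atgsnor1-3 arrays lay below all others after avrB, while untreated sid2 had the highest mean at rest. AT5G52780 (chromosome 5) encodes a PAM68-like protein, also known from NDH complex assembly. Its levels after avrB were 138 and 137 in Col-0, 141 and 139 in atgsnor1-1, 56.0 and 65.3 in atgsnor1-3 and 91.6 and 83.2 in sid2. Its falls were -1.82 in Col-0, -2.07 in atgsnor1-1, -3.10 in atgsnor1-3 and -2.50 in sid2. AT2G34620, of the mTERF family of organelle transcription factors, had falls of -1.51 in Col-0, -1.99 in atgsnor1-1, -3.73 in atgsnor1-3 and -2.43 in sid2. AT3G08920, with a rhodanese domain, fell least in atgsnor1-3 among all named members, with falls of -1.56 in Col-0, -2.23 in atgsnor1-1, -1.62 in atgsnor1-3 and -1.66 in sid2.

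Enzymes of sulfur compounds made up 3 members. AT2G31790 (UGT74C1, chromosome 2) is a glucosyltransferase of aliphatic glucosinolate synthesis. Its untreated signals ran from 314 to 506 units over the 8 arrays, and its levels after avrB were 73.3 and 82.0 in Col-0, 58.6 and 59.1 in atgsnor1-1, 37.5 and 23.9 in atgsnor1-3 and 101 and 72.0 in sid2. GSTU20 (AT1G78370, chromosome 1), a tau class glutathione transferase, was the brightest named member, at 1686 and 1285 units in untreated Col-0. After avrB it stood at 357 and 464 in Col-0, 259 and 306 in atgsnor1-1, 242 and 253 in atgsnor1-3 and 360.1 and 325 in sid2, with falls of -1.85 in Col-0, -2.02 in atgsnor1-1, -2.85 in atgsnor1-3 and -2.13 in sid2. MSRB5 (AT4G04830, chromosome 4) encodes a methionine sulfoxide reductase, which repairs oxidised methionine. It was measured untreated at 326 and 318 in Col-0, 438 and 392 in atgsnor1-1, 335 and 314 in atgsnor1-3 and 727 and 686 in sid2. After avrB it was measured at 76.2 and 86.3 in Col-0, 78.2 and 101 in atgsnor1-1, 15.9 and 19.9 in atgsnor1-3 and 131 and 133 in sid2. Both untreated sid2 arrays lay above all others, and the atgsnor1-3 arrays after avrB lay below all others.

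Lipid enzymes made up 3 members. AT2G42690 (chromosome 2), of a lipase family, stood at 995 and 1051 in Col-0, 1149 and 936 in atgsnor1-1, 662 and 607 in atgsnor1-3 and 1047 and 1052 in sid2 in untreated leaves. After avrB it stood at 363 and 322 in Col-0, 336 and 378 in atgsnor1-1, 100.3 and 81.8 in atgsnor1-3 and 212 and 221 in sid2. It was lowest in atgsnor1-3 in both states, and its falls were -1.58 in Col-0, -1.54 in atgsnor1-1, -2.81 in atgsnor1-3 and -2.28 in sid2. AT1G73600, an enzyme of phosphocholine synthesis by methylation of phosphoethanolamine, had falls of -2.06 in Col-0, -2.40 in atgsnor1-1, -3.88 in atgsnor1-3 and -3.01 in sid2. AT1G29660, of the GDSL lipase family, had falls of -1.56 in Col-0, -2.87 in atgsnor1-1, -3.58 in atgsnor1-3 and -2.38 in sid2.

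Regulators and signalling proteins made up 7 members. AT1G78020 (chromosome 1) encodes a small protein of the FCS-like zinc finger family, whose members bind the energy-sensing kinase SnRK1. Its untreated signals were 894 and 852 in Col-0, 985 and 1131 in atgsnor1-1, 1427 and 1130.3 in atgsnor1-3 and 1408 and 1041 in sid2. After avrB they were 250.1 and 278 in Col-0, 259.9 and 278 in atgsnor1-1, 72.6 and 88.8 in atgsnor1-3 and 214 and 197 in sid2. AT3G22550, of the same family, was uneven in Col-0 after avrB, at 58.8 and 5.95 units. AT1G47400 encodes an IRON MAN peptide, which promotes iron uptake, and had falls of -2.33 in Col-0, -2.29 in atgsnor1-1, -1.93 in atgsnor1-3 and -2.16 in sid2. AT3G15570, of the NPH3 family known from phototropism, had a fall of -7.30 in atgsnor1-3, from 182 and 167 to 1.29 and 0.946 units, where a signal near background leaves the size uncertain. The receptor-like kinase genes AT5G58300 and AT4G34220, with leucine-rich repeats, fell by 2.05 and by 1.54 log2 units in Col-0. The zinc finger gene AT3G51950 had falls of -2.09 in Col-0, -2.13 in atgsnor1-1, -3.11 in atgsnor1-3 and -2.01 in sid2.

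Of the remaining 12 named members, 2 encode DNA glycosylases, AT5G44680 and AT1G80850, and 3 encode other enzymes. These 3 are the acid phosphatase gene AT2G39920, the oxidoreductase gene AT5G49555 and AT1G21440, of the phosphoenolpyruvate mutase family. For the last 7 no role is given here. Among these AT1G19960 (chromosome 1) was the second brightest in untreated Col-0 of all named members. Its untreated signals were 1055 and 1234 in Col-0, 1227 and 1091 in atgsnor1-1, 488 and 379 in atgsnor1-3 and 811 and 912 in sid2. After avrB they were 368 and 340.4 in Col-0, 281 and 289 in atgsnor1-1, 16.3 and 8.29 in atgsnor1-3 and 24.1 and 36.5 in sid2. Col-0 and atgsnor1-1 kept between 281 and 368 units after avrB. Both atgsnor1-3 arrays lay below 20.2 units, while both sid2 arrays lay above that level. The falls were -1.69 in Col-0, -2.02 in atgsnor1-1, -5.21 in atgsnor1-3 and -4.86 in sid2.

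**Figure D3:**
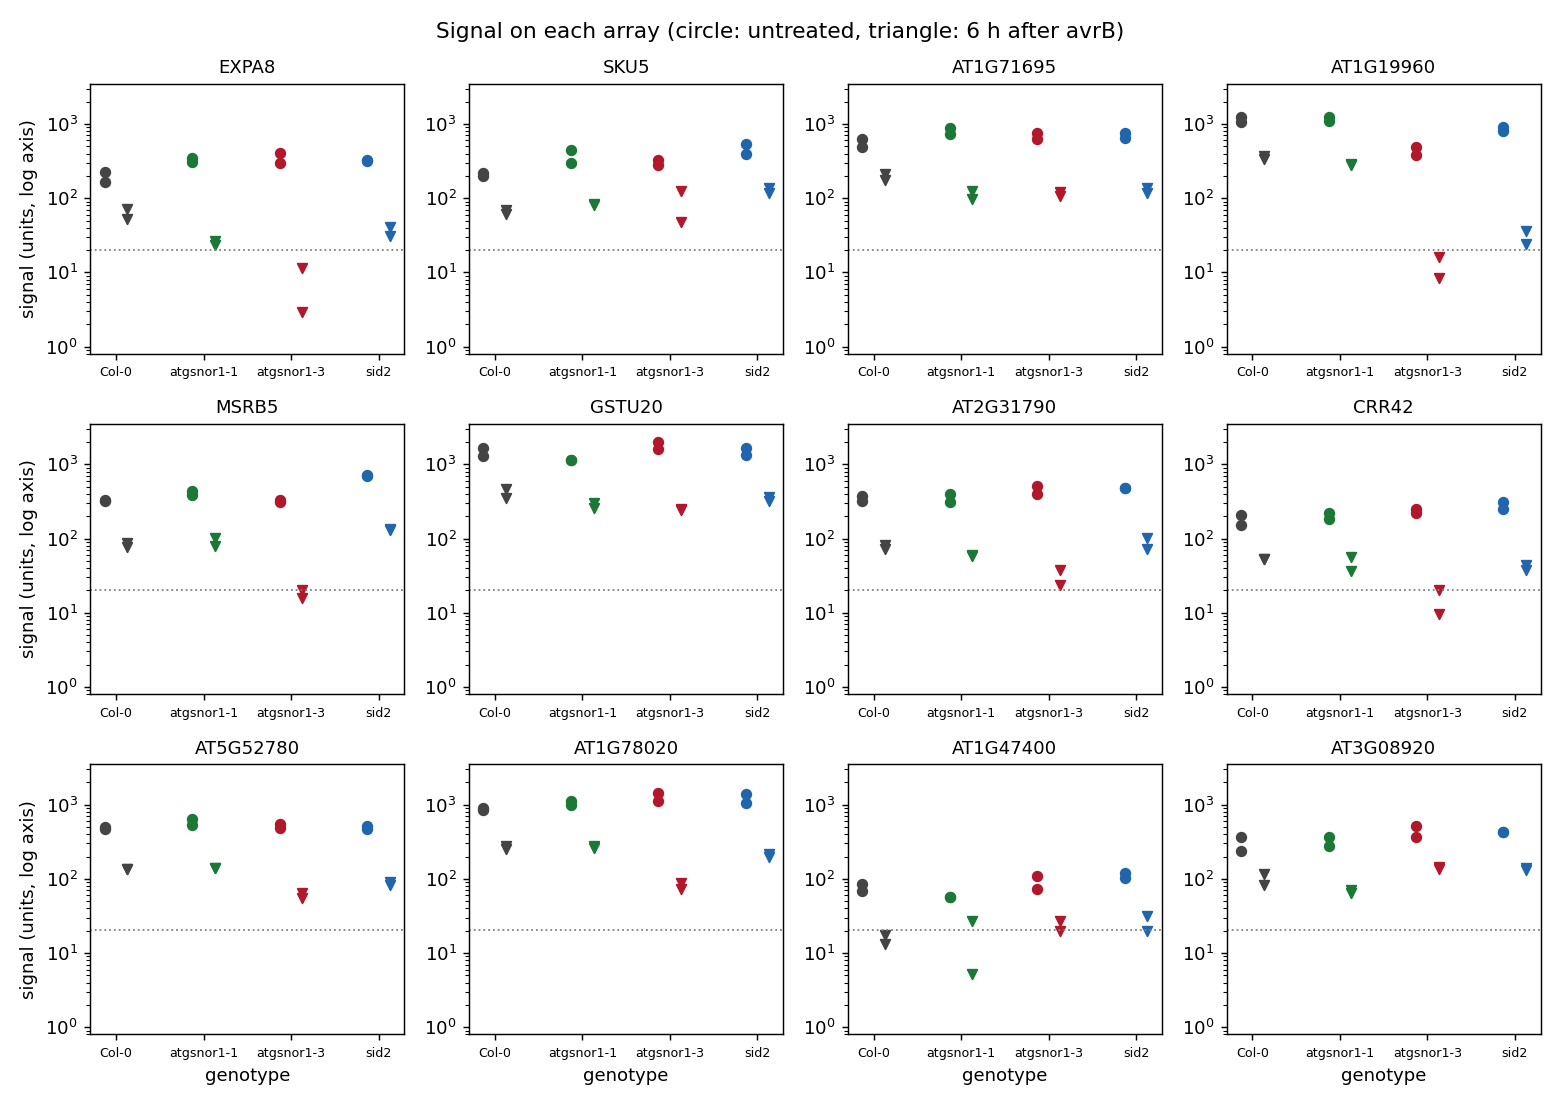
Signal of 12 named members on each array (circles untreated, triangles 6 h after avrB, log axis, 2 arrays a group), with a dotted line at 20.2 units. Triangles lie below circles in every genotype; those of atgsnor1-3 drop to or below the dotted line for EXPA8, AT1G19960 and MSRB5, but not for GSTU20 or AT3G08920.

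Grouped by role, the median Col-0 fall ran from -2.09 for the 7 signalling members to -1.57 for the 3 other enzymes. In atgsnor1-3 the group medians ran from -3.90 for the sulfur compound enzymes to -2.73 for the other enzymes. The groups were formed with the values known. The named members were spread over the genome, with 13 on chromosome 1, 6 on chromosome 2, 7 on chromosome 3, 3 on chromosome 4 and 7 on chromosome 5, and 0 pairs were neighbouring genes in the RefSeq order.

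The first tested question was whether the members already differed between genotypes at rest. A difference was called where the limma adjusted p, over all 13647 tested probe sets, was under 0.05 and the log2 difference was at least 1 in size, and differences are given ± SE with n = 2 arrays a group. Of the 83 members, 78 entered the test, and 5 were too dim on average. The rule used the untreated means of every genotype and a floor on untreated Col-0, so the resting counts too are not independent of it, and the backgrounds beside them come from probe sets not chosen in this way. Between atgsnor1-1 and Col-0, 0 members were called higher, against a background of 0.0879% of all tested probe sets, and 0 lower, against 0.0586%. At an unadjusted limma p under 0.05 there were 4 of the 78 members, beside 1172 of all 13647 tested probe sets. The median difference was 0.13, against -0.01 over all.

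Untreated atgsnor1-3 had 1 member called higher than Col-0, against a background of 2.29%, and 1 called lower, against 6.5%. The lower one was AT1G19960, at -1.41 ± 0.26 log2 units (limma adjusted p = 0.0012), with 488 and 379 units against 1055 and 1234. The higher one was an unnamed probe set, at 1038 and 760.5 units against 179.6 and 245 in Col-0. The median over the 78 members was 0.32, against 0.05 over all.

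Between untreated sid2 and Col-0, 17 of the 78 members had an unadjusted limma p under 0.05, beside 3225 of all 13647 tested probe sets. Untreated sid2 had 5 members called higher than Col-0, against a background of 1.96%, and 0 lower, against 3.96%. The named ones were MSRB5, higher by 1.13 ± 0.17 (limma adjusted p = 0.000343), and SKU5, higher by 1.16 ± 0.32 (limma adjusted p = 0.0267). Both sid2 arrays lay above both Col-0 arrays for each. SKU5 lost its call without any 1 of the 4 arrays, with limma adjusted p of up to 0.208. Without array 1 of untreated sid2 1 member was called, and without array 1 of untreated Col-0 2 were. The median over the members was 0.45, against -0.00 over all.

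Untreated atgsnor1-3 against untreated atgsnor1-1 gave 2 members higher, against a background of 1.29%, and 2 lower, against 4.96%. AT1G19960 was again among the lower ones, at -1.43 log2 units. These comparisons share arrays with each other and are not independent.

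The second question was whether the levels reached after avrB differed between genotypes. The rule chose members on these same arrays, and a level after avrB is the resting level plus the fall that the rule used. The counts below are therefore not independent of the rule. They describe the members, and nothing particular to them is read from the distance to the background. In atgsnor1-3, 43 of the 78 tested members (55.1%) were called lower than in Col-0, against a background of 8.76% of all tested probe sets. None of the 78 was called higher, against 4.32%. The median difference was -1.18, against -0.01 over all, and 73 of the 78 members lay below 0. In 42 of the 43 called members both atgsnor1-3 arrays lay below both Col-0 arrays. A call makes this likely in advance, it was not counted over all probe sets, and nothing is read from it. In 22 of the 43 the atgsnor1-3 mean lay below 20.2 units. The same genotype had the largest share of all tested probe sets called lower than untreated, at 20%. Without array 2 of atgsnor1-3 after avrB, 33 members were called.

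Of the 35 named and tested members, 20 were called lower in atgsnor1-3 than in Col-0 after avrB. AT1G19960, near background in atgsnor1-3, differed by -4.93 ± 0.26 log2 units (limma adjusted p = 2.63e-09). EXPA8 differed by -3.40 ± 0.42 (limma adjusted p = 2.37e-05) and MSRB5 by -2.19 ± 0.17 (limma adjusted p = 2.42e-07). Among the chloroplast members, CRR42 stood at -1.92 ± 0.31 log2 units and AT5G52780 at -1.18 ± 0.16, both called. AT3G08920 was not called, at 0.49 ± 0.23.

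All 3 lipid members were called lower, AT2G42690 at -1.92 ± 0.15, AT1G29660 at -1.40 ± 0.31 and AT1G73600 at -1.10 ± 0.25. Without array 2 of atgsnor1-3 after avrB the latter pair stood at -0.73 and -0.89 and lost their calls, and AT1G73600 also lost its call without array 2 of Col-0 after avrB, at -0.98. Of the sulfur compound enzymes, MSRB5 and AT2G31790 were called, AT2G31790 at -1.37 ± 0.23, whereas GSTU20 was not, at -0.72 ± 0.18. Of the 7 signalling members, 3 were called: AT1G78020 at -1.72 ± 0.17, AT3G15570 at -2.37 ± 0.65 and AT3G51950 at -1.32 ± 0.25.

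Of the 6 tested cell wall members, EXPA8, AT3G14240 at -1.43 ± 0.26 and RALFL24 at -1.69 ± 0.59 were called. The other called named members were AT1G78995 at -2.97 ± 0.64, AT3G18050 at -1.53 ± 0.26, AT5G44680 at -1.77 ± 0.62, AT2G34620 at -1.24 ± 0.27, AT2G39920 at -1.10 ± 0.21 and AT1G21440 at -1.04 ± 0.19. The 2 groups overlapped for AT5G44680, whose call was lost without array 2 of either group, at -1.21 and -0.33. It was also lost after quantile normalization, with no filter, with the replicate block and with only the compared groups, at limma adjusted p from 0.0585 to 0.0952. RALFL24 lost its call without either Col-0 array or array 1 of atgsnor1-3, with log2 differences from -2.02 to -0.33. It was also lost after quantile normalization, with no filter, with a pseudocount, with the replicate block and with only the compared groups, at limma adjusted p from 0.052 to 0.194. AT3G15570 lost its call without either Col-0 array or array 2 of atgsnor1-3, with limma adjusted p from 0.0578 to 0.0752, with a pseudocount, at 0.263, and with only the compared groups, at 0.641. AT2G34620 lost it without array 2 of either group, AT3G51950 without array 2 of atgsnor1-3 and AT1G21440 without array 1 of atgsnor1-3, both at a size just under 1. AT1G21440 and AT2G39920 lost theirs after quantile normalization and with a pseudocount, and AT1G73600 with a pseudocount, each at a size below 1. The calls of EXPA8, MSRB5, CRR42, AT2G42690, AT1G78020, AT5G52780 and AT1G19960 held in this comparison under each alternative run.

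**Figure D4:**
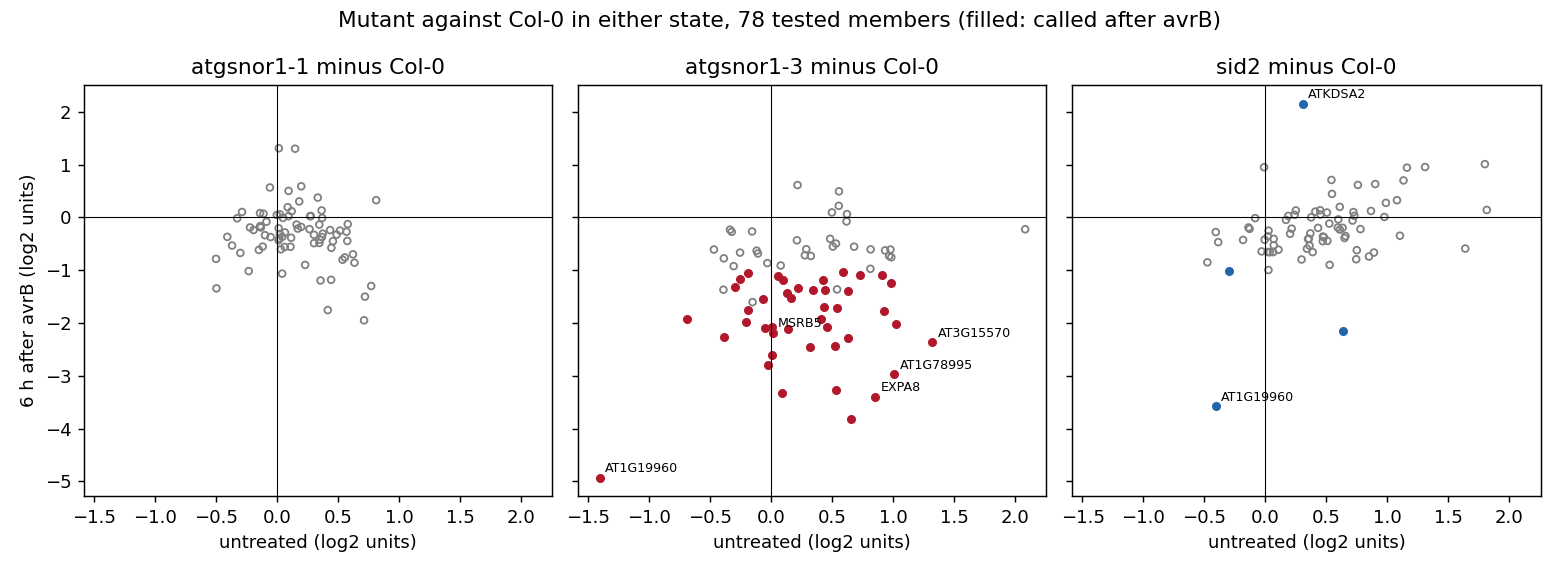
Difference of each mutant from Col-0 for the 78 tested members, untreated on the x axis and 6 h after avrB on the y axis (log2 units); filled points were called after avrB. In the middle panel 43 filled points lie below 0, while the left panel has none and the right panel has 4.

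In atgsnor1-1 after avrB, 0 members were called higher than in Col-0, against a background of 0.0513%, and 0 lower, against 0.11%. At an unadjusted limma p under 0.05 there were 18 of the 78 members, beside 1394 of all 13647 tested probe sets. The median difference was -0.31, against -0.01 over all. In sid2 after avrB, 3 members were called lower than in Col-0, against a background of 0.967%, and 1 higher, against 0.535%. The median was -0.24, against -0.03 over all. AT1G19960 was lower in sid2, at -3.58 ± 0.26 log2 units (limma adjusted p = 4.08e-07), with 24.1 and 36.5 units against 368 and 340.4. ATKDSA2 was higher by 2.16 ± 0.48 (limma adjusted p = 0.0259), with 21.9 and 28.3 units against 6.54 and 4.76. Its call was lost without any 1 of the 4 arrays, with limma adjusted p from 0.0800 to 0.218, and with only the compared groups, at 0.113. Without any 1 of those arrays, 1 member was called lower.

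Between the reductase lines after avrB, 29 members (37.2%) were called lower in atgsnor1-3 than in atgsnor1-1, against a background of 8.98%, and 1 higher, against 5.42%. The median was -0.88, against 0.02 over all. This comparison and the one with Col-0 use the same atgsnor1-3 arrays. AT1G19960 differed by -4.62 ± 0.26, MSRB5 by -2.32 ± 0.17, EXPA8 by -2.10 ± 0.42 and CRR42 by -1.71 ± 0.31. EXPA8 lost this call with only the compared groups, at a limma adjusted p of 0.0909. The member called higher was AT3G08920, by 1.05 ± 0.23 (limma adjusted p = 0.00281). It lost its call at 0.99 without array 2 of atgsnor1-1 and at 0.98 without array 1 of atgsnor1-3, and also after quantile normalization, at 0.99, and with a pseudocount, at 0.96. In absolute levels after avrB, 70 of the 83 members were lowest in atgsnor1-3, 10 in atgsnor1-1, 2 in sid2 and 1 in Col-0. The rule used these means and the order was not counted over all probe sets, so nothing particular to the core is read from it. Whether the falls themselves differ between genotypes was not tested, because the rule used them.

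Genes of related pathways outside the core were taken from 16 lists with 304 genes, of which 37 were matched to a probe set and 33 tested. Only 3 of the tested ones were members, namely EXPA8, ATKDSA2 and AT2G31790. Of the other 30, limma called 12 lower after avrB in Col-0, 16 in atgsnor1-1, 20 in atgsnor1-3 and 17 in sid2, and called 0 higher. Over all tested probe sets the lower calls were 5.07%, 10.5%, 20% and 11.6%, and the higher calls were 7.31%, 8.58%, 15% and 10.9%.

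Of 7 tested photosystem genes, 4 fell in Col-0, 3 in atgsnor1-1, 4 in atgsnor1-3 and 2 in sid2. LHCB4.2, a light-harvesting protein of photosystem II, fell in all 4, with log2 differences of -1.60 in Col-0, -1.45 in atgsnor1-1, -2.37 in atgsnor1-3 and -1.92 in sid2. Of 4 carbon fixation and photorespiration genes, 1 fell in Col-0 and 3 in each mutant. PRK, the phosphoribulokinase of the Calvin cycle, fell in all 4, with -1.02 in Col-0, -1.72 in atgsnor1-1, -2.11 in atgsnor1-3 and -1.57 in sid2. RCA, the mesophyll marker, stayed under the size of 1 log2 unit in all 4, at -0.76 in Col-0, -0.95 in atgsnor1-1, -0.74 in atgsnor1-3 and -0.89 in sid2.

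Of 3 chlorophyll genes, PORB and CHLM fell in all 4 genotypes and GSA1 in none. PORB, a protochlorophyllide reductase, stood at -1.07 in Col-0, -1.74 in atgsnor1-1, -2.42 in atgsnor1-3 and -1.38 in sid2. Among 3 starch genes, PWD and DPE1 of starch breakdown fell in all 4. The other, QQS, fell in Col-0 at -3.01, atgsnor1-3 at -2.89 and sid2 at -2.64, but not in atgsnor1-1, at -0.90. BCAT4, which starts methionine-derived glucosinolate synthesis and so precedes the step of AT2G31790, also fell in all 4, with -1.65 in Col-0, -1.25 in atgsnor1-1, -3.64 in atgsnor1-3 and -2.14 in sid2. Of 5 tested cell wall genes outside the core, 0 fell in Col-0, 1 in atgsnor1-1, 3 in atgsnor1-3 and 1 in sid2. Other tested list genes were 3 tubulins, with 1, 3, 2 and 2 falling in Col-0, atgsnor1-1, atgsnor1-3 and sid2, 1 auxin, 1 clock and 2 stomatal genes. STOMAGEN, a secreted peptide that promotes stomata, fell in the 3 mutants. It stood at -0.96 in Col-0, -4.50 in atgsnor1-1, -3.88 in atgsnor1-3 and -3.20 in sid2, each with an SE of 0.92. Its means after avrB in these mutants, at 7.91, 9.53 and 13.5 units, lay below 20.2 units, so the sizes are uncertain. After avrB it was not called different from Col-0 in any mutant. Lists on light signalling, brassinosteroid and gibberellin, aquaporins, nitrogen, cuticle and low energy had 0 tested genes.

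The 5 named probe sets outside the core whose profile over the 16 arrays was most like the mean profile of the members were AT3G07310, AT1G51400, AT1G66820, AT4G15545 and AT5G01020, with Pearson r between 0.986 and 0.988. All 16 arrays entered both sides, and every member differs between the states, as the rule requires. The members' own r with that mean ran from 0.814 to 0.992, with a median of 0.952. AT3G07310 had falls of -1.32 in Col-0, -1.39 in atgsnor1-1 and -2.51 in atgsnor1-3, and so missed the rule in Col-0 and atgsnor1-1. AT1G51400, at 3672 units in untreated Col-0, had falls of -1.41 in Col-0 and -2.54 in atgsnor1-3.

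The rule has sharp edges. Just inside it lay AT2G34620, whose smallest fall was -1.51, in Col-0. Just outside lay AT3G56370, whose Col-0 fall missed the limit by less than the second decimal shows, with 84.7 units in untreated Col-0. Its other falls were -1.85, -2.20 and -1.87 in atgsnor1-1, atgsnor1-3 and sid2. On the level condition, the dimmest members stood at 50.1, 51.6 and 55.2 units in untreated Col-0, and the brightest probe sets left out stood at 49.9, 49.3 and 47.5 units.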

How the data were processed

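Leaf RNA was hybridised to 16 one-colour arrays. The deposited values are linear intensity values, 1 per probe set and array, made with MAS5 and GCOS, per the submitters' processing notes, with versions not given in the sources used here. Each array proved to be scaled to a trimmed mean of 100. The scaling compresses any change shared by most transcripts. Groups follow the labels; the title of the second sid2 avrB array names both replicate numbers and was taken as array 2.

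Of 22810 probe sets, 64 controls and the dimmest 40% of the rest, under 20.2 units, were left out of tests. Names came from the platform annotation and RefSeq: 13513 probe sets carry 1 gene, 503 several and 8730 none.

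Signals were taken to log2 with no pseudocount. Using R 4.3.3 and limma 3.58.1, lmFit and eBayes with trend were run on 8 group means, two-sided, with Benjamini-Hochberg adjustment over 13647 probe sets, and the fit was tested on simulated data. Alternatives were quantile normalization, other filters, a pseudocount of 9.48 units, the replicate number as a block, only the compared groups, and each array left out. Figures used Python 3.11.15, pandas 2.3.3 and matplotlib 3.10.9. Named genes were list members, the deepest and brightest members, those called with the largest differences, those nearest the rule's limits and those with a known role. The members, lists and alternatives were chosen with earlier results of these data known. Promoter and protein sequences were not used here. The number of arrays limits the precision.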

Additional observations from a re-analysis of the deposited data

How the results depend on the processing

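The size of the core depended on the rule more than on the scaling. It held 54 members with a pseudocount of 9.48 units, 441 with a fall of at least 1 log2 unit, 17 with a fall of at least 2, 86 after quantile normalization and 80 to 99 without 1 array. Membership changed more than these counts show. Of the 83 members, 77 remained after quantile normalization. Without 1 Col-0 array, 65 to 71 of the 83 remained, and without 1 array of another genotype 76 to 83. The 43 members called lower in atgsnor1-3 than in Col-0 after avrB numbered 38 after quantile normalization, 44 with no filter, 35 without the dimmest 60%, 32 with a pseudocount, 35 with only the compared groups and 33 to 43 without 1 array. The 29 called lower than in atgsnor1-1 after avrB numbered 20 to 29 under the same alternatives and 23 to 39 without 1 array. Members called higher there, 1, numbered 0 after quantile normalization and with a pseudocount, and 0 to 3 without 1 array.

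Smaller counts moved as follows. In untreated atgsnor1-3 the 1 member called higher than Col-0 became 2 after quantile normalization, 2 with a pseudocount and 3 with only the compared groups, and 2 to 3 without 1 array. In untreated sid2 the 5 called higher became 8 with a pseudocount, 8 with only the compared groups and 1 to 6 without 1 array. Untreated atgsnor1-3 against atgsnor1-1 gave 1 to 3 higher and 1 to 2 lower without 1 array. After avrB, atgsnor1-1 against Col-0 gave 1 lower with only the compared groups, and 0 to 1 higher and 0 to 1 lower without 1 array, and atgsnor1-3 gave 0 to 1 higher. For sid2 after avrB the 1 higher call became 0 without the dimmest 60%, 0 with only the compared groups and 0 to 1 without 1 array, and the 3 lower calls became 1 without any 1 array. List genes called lower numbered 9 to 11, 16 to 18, 18 to 23 and 14 to 18 in the 4 genotypes without 1 array, an alternative added after seeing the data. The cause of these shifts was not tested.

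With the replicate number as a block, 41 members were called lower in atgsnor1-3 than in Col-0 after avrB, 30 lower than in atgsnor1-1, 3 lower and 1 higher in sid2, and 6 higher in untreated sid2. The numbers were not taken as pairing the arrays. The deviations of 28 pairs of groups correlated at r from -0.153 to 0.105, with 1 pair over 0.1. The lowest r was between untreated Col-0 and sid2 after avrB.

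For the 41 called differences of named members, 337 of 404 values under alternatives kept the call, 67 lost it and 0 changed direction. With a pseudocount AT3G15570 stood at -0.52 against Col-0 after avrB. Of 840 falls of named members under alternatives added after seeing the data, 808 moved by less than the spread between arrays and 0 changed sign. Of the other 32, 30 came with the pseudocount. Leaving out an array moves a group mean by less than the spread of its arrays, so such falls were certain to be among the 808. With an array left out or a pseudocount the sign could not change. The arrays after avrB lay below the untreated ones in every genotype for all 83 members. Nothing is read from the falls with an array left out. Signals near background limit what the arrays can show for the 35 members below 20.2 units in atgsnor1-3 after avrB.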
